A study of Homo sapiens and Mus musculus with 18 samples.

Results

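The genes described are 38 components of the DNA replication machinery, taken as a fixed list of names from the 34505 gene rows of the human count files. They cover the MCM helicase, the origin recognition and loading factors, the factors that activate the helicase, the sliding clamp and its loader, the polymerases with primase, the enzymes that join lagging-strand fragments, the single-strand binding protein and a pair of fork protection factors. All 38 names were found. Expression was measured by RNA sequencing of cultured pancreatic cancer cells that differ in K17, the intermediate filament protein keratin 17 encoded by KRT17. The 4 human groups, of 3 libraries each, were L3.6 cells with K17 knocked out by CRISPR-Cas9 (KO), L3.6 cells with wild-type K17 (WT), PANC-1 cells over-expressing K17 (K17), and PANC-1 cells carrying an empty vector (EV). L3.6 is labelled a pancreatic adenosquamous carcinoma line and PANC-1 a pancreatic ductal adenocarcinoma line. The other 6 of the 18 samples are mouse cells and were not used. The labels do not say whether a group is 1 clone or a pool, nor whether replicates are separate cultures. The spread behind every p-value is therefore that of these libraries and may be technical.

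Replication starts at origins bound by the origin recognition complex (ORC), where CDC6 and CDT1 load the ring-shaped MCM helicase before S phase. CDC45, the GINS complex and MCM10 then turn the loaded ring into a moving helicase, polymerase alpha with primase lays down primers, and polymerases epsilon and delta extend them on the PCNA clamp that the RFC complex loads. RPA coats the single-stranded DNA that the helicase exposes, and TIMELESS and CLSPN hold the fork together and relay checkpoint signals. Many of these genes are transcribed at the border of G1 and S phase under E2F factors, so their RNA is low in cells that do not divide. In bulk samples such as these, fewer cells in S phase and less RNA per cell cannot be told apart.

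The promoters of 5 genes are printed first, chosen among the members with calls reported below. Other called members with a window are not printed. RPA1 and CLSPN were called in L3.6 and, only where empty vector (EV) replicate 2 was left out of the edgeR test, in PANC-1. MCM10, POLA1 and POLE were, with RPA1 and POLD3, called in PANC-1 under every alternative that left out that library, and POLD3 had no window. Each sequence is the RefSeq window of the GRCh38.p14 assembly, 250 bases before to 50 bases after the annotated start, written 5′ to 3′ along the gene. Capitals mark E2F words (TTTCCCGC, TTTGGCGC, TTTCGCGC or TTTGCCGC) and CCAAT, each on either strand, so that GCGCCAAA or GCGGGAAA is an E2F word read on the other strand and ATTGG is CCAAT read on the other strand.
RPA1, chr17:1829755-1830054, plus strand: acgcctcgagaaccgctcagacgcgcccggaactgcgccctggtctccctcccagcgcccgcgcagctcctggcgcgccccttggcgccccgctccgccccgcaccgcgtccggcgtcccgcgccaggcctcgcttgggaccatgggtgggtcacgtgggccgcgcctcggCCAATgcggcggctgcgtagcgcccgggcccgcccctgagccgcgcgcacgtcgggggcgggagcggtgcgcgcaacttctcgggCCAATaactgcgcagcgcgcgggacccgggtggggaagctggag
MCM10, chr10:13161308-13161607, plus strand: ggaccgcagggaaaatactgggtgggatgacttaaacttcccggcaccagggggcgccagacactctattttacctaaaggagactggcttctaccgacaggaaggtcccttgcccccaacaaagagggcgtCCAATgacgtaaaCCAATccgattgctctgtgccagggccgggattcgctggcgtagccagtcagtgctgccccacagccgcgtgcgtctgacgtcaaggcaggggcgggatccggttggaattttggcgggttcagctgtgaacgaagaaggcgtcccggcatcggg
POLA1, chrX:24693668-24693967, plus strand: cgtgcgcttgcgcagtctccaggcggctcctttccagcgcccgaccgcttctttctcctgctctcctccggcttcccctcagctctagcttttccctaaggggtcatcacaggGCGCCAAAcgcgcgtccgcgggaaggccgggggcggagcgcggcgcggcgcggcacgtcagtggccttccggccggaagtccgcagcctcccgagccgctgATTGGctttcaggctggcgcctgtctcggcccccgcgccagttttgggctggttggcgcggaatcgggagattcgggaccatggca
POLE, chr12:132687293-132687592, minus strand: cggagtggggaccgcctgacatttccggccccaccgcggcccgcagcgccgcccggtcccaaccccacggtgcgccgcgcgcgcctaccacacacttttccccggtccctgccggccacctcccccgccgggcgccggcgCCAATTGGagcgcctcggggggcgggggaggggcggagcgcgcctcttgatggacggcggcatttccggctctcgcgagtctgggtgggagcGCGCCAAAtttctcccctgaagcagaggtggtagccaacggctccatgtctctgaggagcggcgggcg
CLSPN, chr1:35769929-35770228, minus strand: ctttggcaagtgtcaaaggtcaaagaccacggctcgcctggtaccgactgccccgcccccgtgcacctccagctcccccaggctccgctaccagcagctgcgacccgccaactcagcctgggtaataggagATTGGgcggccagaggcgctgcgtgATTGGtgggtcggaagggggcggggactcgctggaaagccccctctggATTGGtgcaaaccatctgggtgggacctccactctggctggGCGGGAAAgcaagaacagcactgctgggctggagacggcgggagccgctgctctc
RPA1 and MCM10 hold 2 CCAAT words each and no E2F word of this spelling. POLA1, POLE and CLSPN hold 1 E2F word each.

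A window was available for 32 of the 38 members. GINS4, RPA2, RPA3, MCM4, MCM5 and POLD3 had none in the table. An E2F word stood in 17 of the 32 windows (53.1%), against 908 of 27305 promoters of the same length in the table (3.33%) and 703 of 15843 promoters of protein-coding genes (4.44%). MCM2, MCM3, MCM6 and MCM7 each held more than 1, and in MCM2 and MCM6 words on opposite strands overlap. CCAAT shares a base with an E2F word in MCM7 and in no other member, and stood in 20 of the 32 windows (62.5%), against 35.7% of all promoters. The word TTTGAA, part of the cell-cycle homology region found in promoters of G2 and mitosis genes, was in 0 of 32 windows, against 15.4% of all promoters and 12.1% of those of protein-coding genes. Median GC content was 64.3% in the member windows, 58.3% in all promoters and 62.7% in those of protein-coding genes. The part of GC content in these word shares was not tested. Of the 12 members called lower in PANC-1 without EV replicate 2 (of 37 tested, where 9.25% of all genes were called lower; 0 members with all 6 libraries), 10 had a window and 7 of these held an E2F word, while among the other 25 members tested there 21 had a window and 9 held one. A match of letters describes the sequence and is not a binding site shown in these cells.

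**Figure D1:**
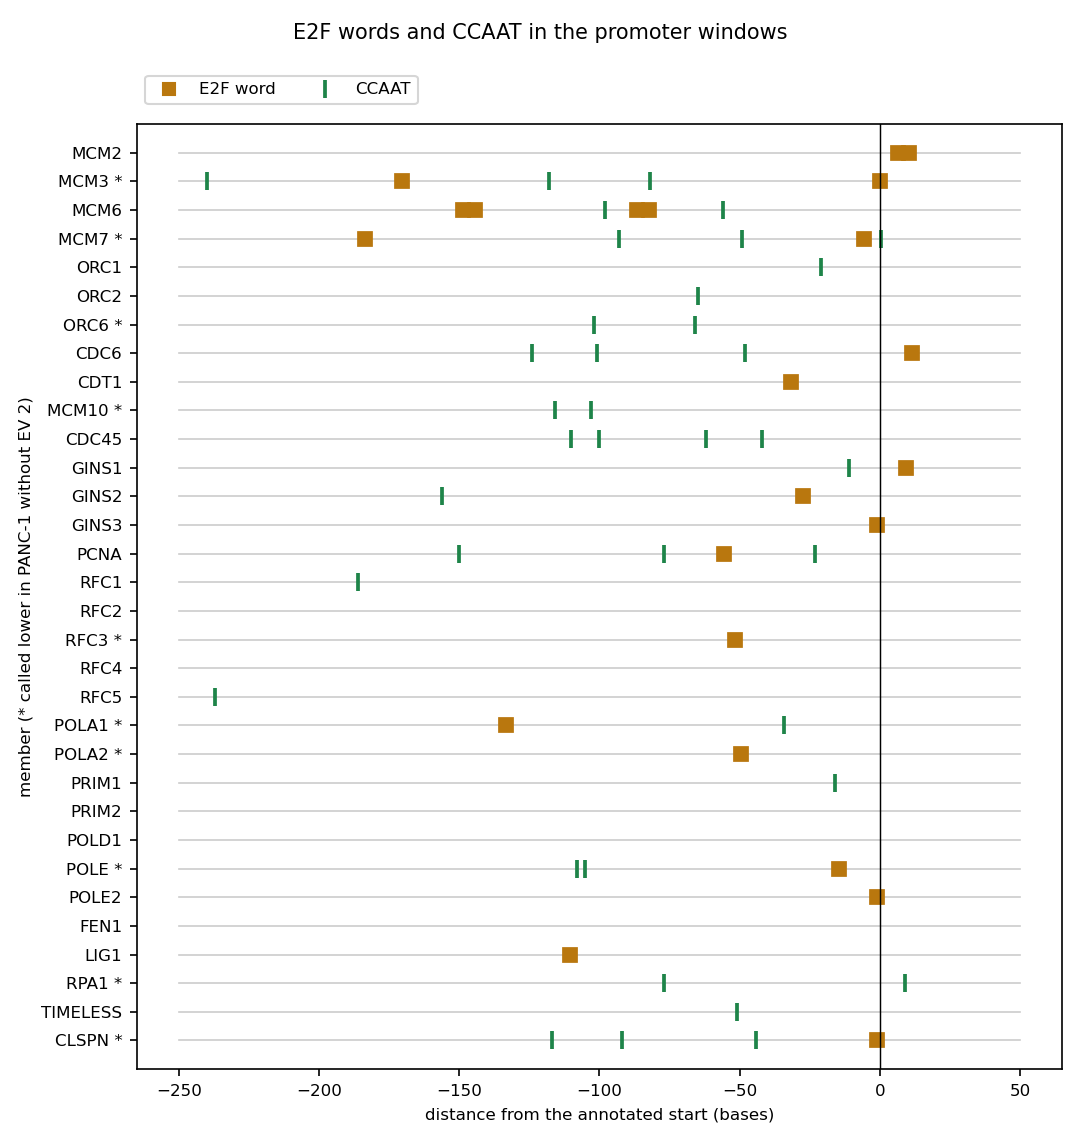
Positions of E2F words (squares) and CCAAT (ticks) in the promoter windows of the 32 members that had one; the x axis is the distance in bases from the annotated start, and each row is 1 gene. Squares appear in 17 of the 32 rows and begin between -187 and 8 bases from the start, and asterisks mark members called lower in PANC-1 without empty vector replicate 2.

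Library totals ran between 12561589 and 13800079 counts in L3.6 KO cells and between 9485257 and 15476629 in L3.6 WT cells, and between 59671178 and 61507212 in PANC-1 K17 cells and between 63280851 and 70789559 in PANC-1 EV cells. KRT17 itself had 202, 204 and 175 counts in the KO libraries, against 1654, 1112 and 1420 in the WT libraries, and 8597, 9884 and 9228 counts in the K17 libraries, against 2, 0 and 0 in the EV libraries. PANC-1 EV replicate 2 stands apart: mitochondrially encoded genes took 18.8% of its counts and between 9.88% and 10.8% of those of the other 5 PANC-1 libraries, and it lay at -103 on the first principal component, with the other 5 between 17.5 and 23.9. In L3.6, WT replicate 1 lay at -6.50 on that line's first component, between the KO libraries (17.1 to 33.7) and the other WT libraries (-33.9 and -36.1). Summed ductal keratin and adhesion markers (6 genes) held 3826 to 4131 CPM in KO, 3220 to 3613 CPM in WT, 1006 to 1056 CPM in K17 and 927 to 1742 CPM in EV libraries. Within that list CDH1 averaged 1.58 CPM in L3.6 and 0.588 CPM in PANC-1, and KRT7 averaged 0.961 CPM in PANC-1. CD3E, INS and GCG were at 0 counts in all 12 libraries, while the immune gene CD68 averaged 2.52 CPM in L3.6 and 37.9 CPM in PANC-1. Values below are CPM, counts relative to the library total, scaled within each line by trimmed means of M-values (TMM). A gene is said to be called, or to have risen or fallen, where edgeR's quasi-likelihood test over all genes of the comparison gave a Benjamini-Hochberg adjusted p under 0.05.

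The rows of these genes differ widely in size, and some are very low for genes of dividing cells. In L3.6 the mean CPM per member ran between 1.28 and 757, and 7 members averaged under 5 CPM. In PANC-1 it ran between 0.0587 and 284, with 9 members under 5 CPM. MCM6, CDT1, GINS1, GINS2, PCNA, PRIM2 and FEN1 were under 5 CPM in both lines. The counting step is not given in the sources used here, and whether such a row holds all reads of its gene was not tested, so levels are compared between groups within a row. Reads of overlapping neighbours (MCM7 with AP4M1, RFC4 with EIF4A2, RPA1 with SMYD4, RPA3 with UMAD1, FEN1 with FADS2, PRIM1 with NACA) cannot be told apart without the strand setting, which is likewise not given.

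In L3.6 cells, RPA1 was the replication gene that differed most firmly between KO and WT cells, and 35 of the 38 did not pass the test. RPA1, the large subunit of RPA, was 1.61-fold higher in KO cells. CDT1, a loading factor, was higher from very low counts, and CLSPN, the checkpoint adaptor claspin, was 0.817-fold its WT level. In all, 3 of 38 were called (7.89%), where 1335 of the 13891 genes tested were (9.61%, with 6.10% higher and 3.51% lower). The median log2 fold change (KO over WT) was 0.01 over the members and -0.01 over all genes tested. Among rows averaging at least 10 CPM, 2 of 30 members were called, against 14.5% of all such rows. The libraries of the groups did not overlap in 5 members with KO higher (13.2%; all genes 17.9%) and in 2 with KO lower (5.26%; all genes 15.3%).

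RPA1 lies on chromosome 17 (chr17:1829702-1900082, plus strand, GENCODE 29 on GRCh38). It had 415, 452 and 444 CPM in the KO libraries, against 290.2, 263 and 259 CPM in the WT libraries. The groups do not overlap, and the lowest KO library is far above the highest WT library. The mean was 436.8 ± 19.4 CPM in KO and 270.5 ± 17.2 CPM in WT (SD, n = 3 each). This is a log2 fold change of 0.69 (SE 0.06), with an adjusted p of 4.67e-04, and RPA1 was called under each of the 13 alternatives. The 2 smaller subunits of RPA did not pass. RPA2 had 12.8, 15.2 and 8.36 CPM in KO and 13.1, 6.07 and 7.11 CPM in WT libraries, and RPA3 had 128, 144 and 134 CPM in KO and 142, 123 and 126 CPM in WT libraries. Both overlap between the groups.

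CDT1, which brings the MCM ring to origins and is destroyed once S phase begins, had 3.56, 4.17 and 3.56 CPM in KO libraries, against 1.59, 0.325 and 0.423 CPM in WT libraries. In counts these are 46, 58 and 46 reads in KO and 25, 3 and 5 reads in WT, so the WT values rest on few reads and WT replicate 1 stands above the other 2. The log2 fold change was 2.16 (SE 0.52; adjusted p = 0.0373), and the call was lost in 7 of 12 alternatives, with adjusted p up to 0.205. The other loading factors did not pass. ORC1, the largest ORC subunit, had 10.1, 11.7 and 17.5 CPM in KO and 8.41, 9.65 and 8.71 CPM in WT libraries, with no overlap (adjusted p = 0.148). ORC2, ORC6 and CDC6 had log2 fold changes of -0.18, 0.01 and -0.20.

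CLSPN had 91.0, 88.6 and 97.2 CPM in KO libraries, against 112, 121 and 106 CPM in WT libraries. Every KO library is below every WT library, by a small margin. The log2 fold change was -0.29 (SE 0.07; adjusted p = 0.0308), and the call was lost in 7 of 13 alternatives, each KO library left out in turn among them. Its partner in the fork protection layer, TIMELESS, held 120.4, 118 and 117 CPM in KO and 118, 114 and 111 CPM in WT libraries (log2 fold change 0.05, SE 0.05).

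No gene of the helicase or of the polymerases passed in L3.6. MCM7, a subunit of the MCM ring, had 786, 827 and 773 CPM in KO and 784, 707 and 669 CPM in WT libraries (log2 fold change 0.14, SE 0.06; adjusted p = 0.194). MCM5, another subunit, did not overlap between groups, at 301, 301 and 312 CPM in KO and 291, 235 and 252 CPM in WT libraries, and had an adjusted p of 0.0991. POLA1, the catalytic subunit of polymerase alpha, and POLE, that of polymerase epsilon, had log2 fold changes of 0.01 each (SE 0.05 each). MCM10 (-0.05, SE 0.06), CDC45 (-0.05, SE 0.07), RFC4 (0.03, SE 0.06) and POLD3 (0.00, SE 0.06) were also near 0. POLD1, the catalytic subunit of polymerase delta, had 135, 146 and 149 CPM in KO and 136, 116 and 116 CPM in WT libraries (log2 fold change 0.22; adjusted p = 0.112). GINS4 had 12.2, 9.86 and 13.3 CPM in KO and 15.5, 15.3 and 16.4 CPM in WT libraries, without overlap (adjusted p = 0.119). GINS3, of the same complex, lay the other way, at 62.8, 60.3 and 63.2 CPM in KO and 55.5, 55.7 and 46.8 CPM in WT libraries (adjusted p = 0.109). Over the 35 uncalled members the log2 fold change ran between -1.09 (PRIM2) and 0.56 (ORC1), and the median SE was 0.105 among members of at least 10 CPM, which limits the changes that could be detected.

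How many members passed in L3.6 depends on single libraries. Without KO replicate 1, 2 or 3 or WT replicate 2, RPA1 alone was called, with between 574 and 807 genes in all. Without WT replicate 1, 6 members were called, RPA1, CDT1, CLSPN, MCM5, MCM7 and POLD1, all higher in KO but for CLSPN, while 2493 genes were called in all. Without WT replicate 3 the calls were RPA1, CLSPN and RFC1, with 786 genes in all. The row AC010970.1 took 4.34% to 6.96% of counts in KO libraries and 6.05% to 14.1% in WT libraries, and leaving it out changed no member's call. Markers of other cell types differed too. Of 4 tested fibroblast genes COL1A1 was called lower in KO (-0.41; adjusted p = 0.0211), and the list of 6 summed to 141 to 155 CPM in KO, against 173 to 197 CPM in WT libraries. PECAM1, the 1 endothelial gene tested, was also lower (-1.40; adjusted p = 0.00468), and its list of 4 summed to 3.48 to 4.03 CPM in KO, against 8.78 to 12.9 CPM in WT libraries. KRT19 and KRT7, of 6 tested ductal genes, were called higher in KO (log2 fold changes 0.30 and 0.52), and 0 were called lower. LUM was at 0 counts in 5 of the 6 libraries, and the part of these markers in the L3.6 values was not tested.

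**Figure D2:**
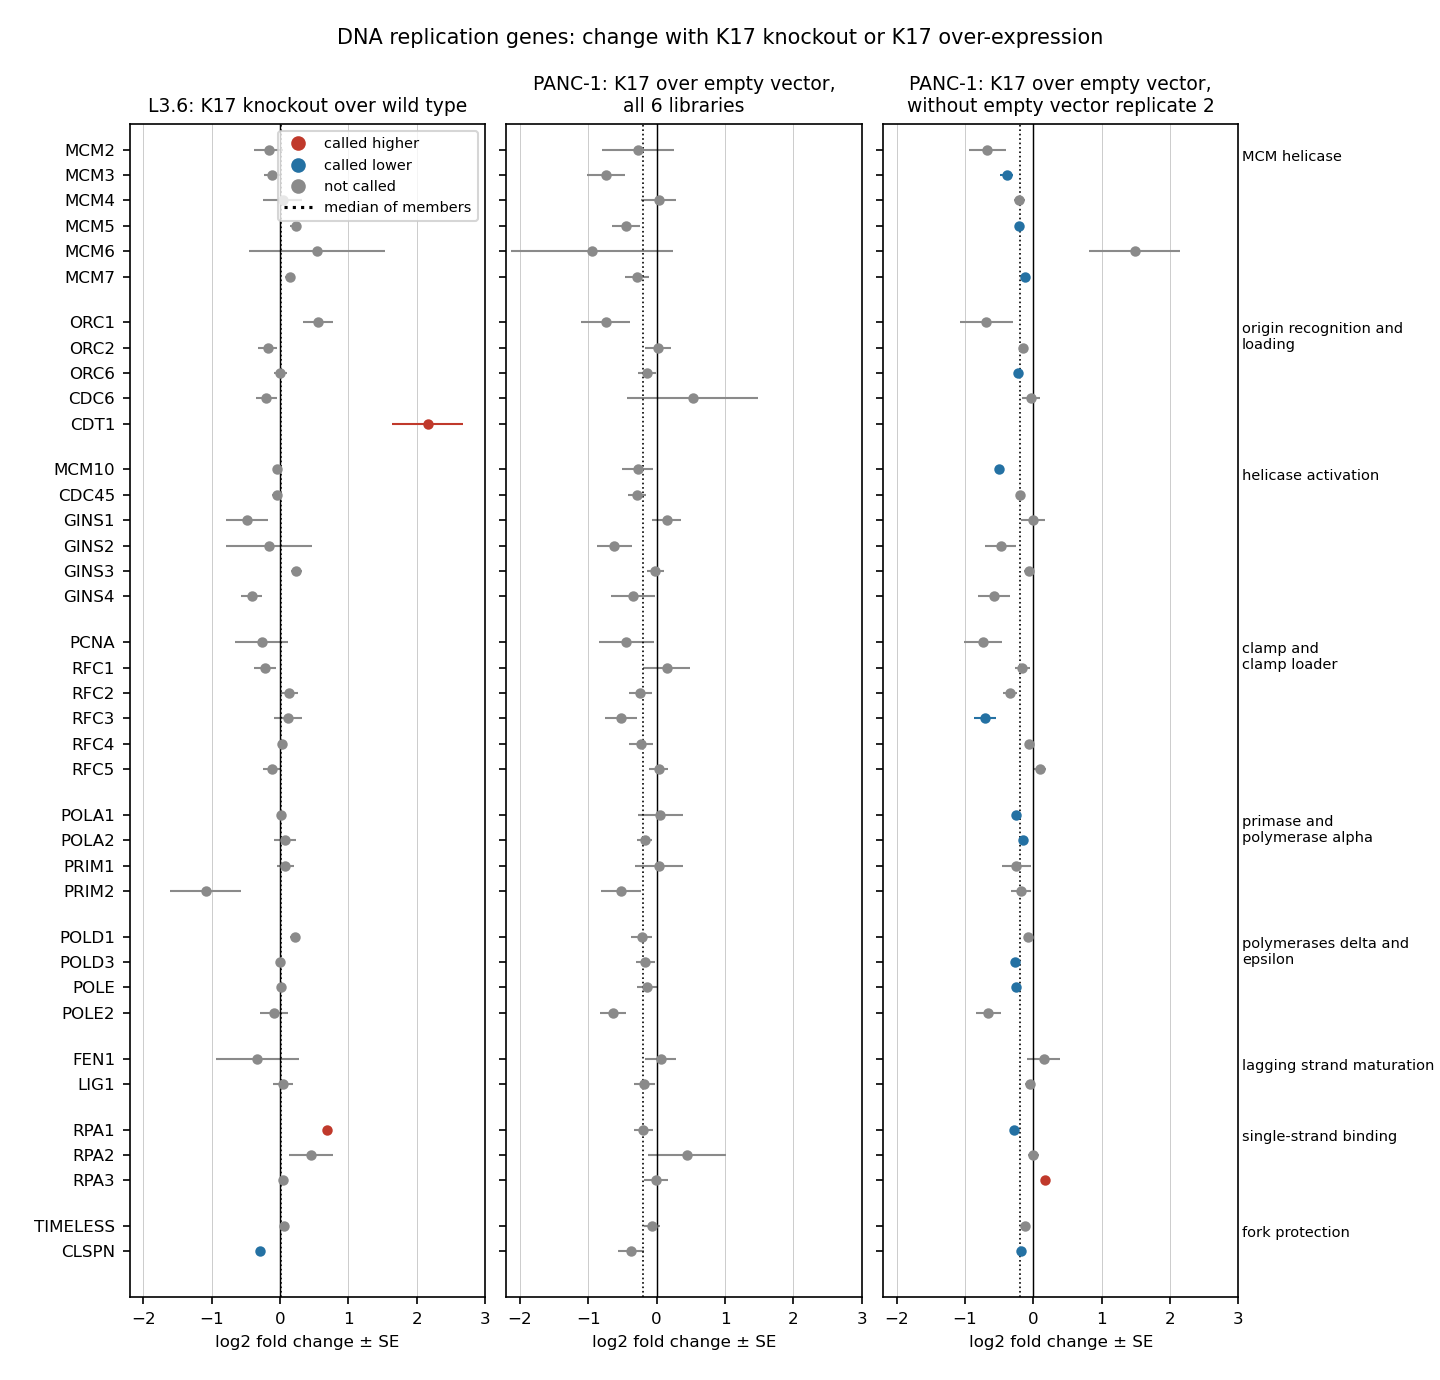
Log2 fold change with its SE (x axis) of each replication gene (rows, by complex) in L3.6 KO over WT, in PANC-1 K17 over EV with all 6 libraries, and without EV replicate 2; red and blue points passed the test and the dotted line is the median of the members. RPA1 and CDT1 are the red points of the L3.6 panel, no point is coloured in the middle panel, and 12 blue points and 1 red point (RPA3) appear in the right panel, where the median is -0.19.

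In PANC-1 cells, 27 of 37 replication genes had a negative log2 fold change with K17, against 48.8% of all genes. Whether any of the 37 passed depended on EV replicate 2. With all 6 libraries, 0 of 37 members tested were called in edgeR, where 105 of 16295 genes were (0.644%, with 0.583% higher and 0.0614% lower). At an unadjusted p under 0.05 there were 2 members and 1634 genes, and DESeq2 called 0 members, where it called 3.66% of all genes. Limma voom with quality weights per library called 11 lower and 1 higher, where it called 3030 genes (18.6%) in either direction. Its share over all genes was not split by direction. CDT1 was not tested, with 0 to 10 reads in any PANC-1 library. The median log2 fold change (K17 over EV) was -0.19 over the members and 0.01 over all genes. All 3 K17 libraries lay below all 3 EV libraries in 10 members (27.0%; all genes 11.1%), and above them in 0 (all genes 14.5%).

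EV replicate 2 spread the members in both directions. It differed by more than 2-fold from the mean of EV replicates 1 and 3 in 6 of 37 members (16.2%), 1 higher and 5 lower, against 19.4% of all genes. CDC6, which loads the MCM ring with CDT1, had 14.5, 11.7 and 11.2 CPM in K17 libraries, against 13.7 and 11.7 CPM in EV replicates 1 and 3 and 0.543 CPM in EV replicate 2. RPA2 had 17.6, 17.4 and 15.8 CPM in K17 libraries, against 16.7 and 17.1 CPM in EV replicates 1 and 3 and 3.42 CPM in replicate 2. For both genes the K17 libraries sit among EV replicates 1 and 3. CLSPN, MCM3 and MCM7 were instead highest in EV replicate 2. POLA1 and RPA3 changed direction with this library: their log2 fold changes were 0.05 and -0.01 with it, and -0.26 and 0.17 without it.

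Without EV replicate 2, 12 members fell with K17 and 1 rose, where 20.7% of all genes were called. The 12 were MCM3, MCM5, MCM7, ORC6, MCM10, RFC3, POLA1, POLA2, POLD3, POLE, RPA1 and CLSPN, from 8 of the 9 groups of factors. They make 32.4% of the 37 members tested, where 9.25% of all 16640 genes fell. The gene that rose was RPA3, where 11.4% of all genes rose. The falls were small, between -0.12 (MCM7) and -0.71 (RFC3) on the log2 scale. The median was -0.19 over the members and 0.01 over all genes, and 33 of 37 members had a negative value, against 49.0% of all genes. All 3 K17 libraries lay below both EV libraries in 25 members (67.6%; all genes 22.9%), and above them in 1 of 37 (all genes 25.3%). Among rows of at least 10 CPM, 11 of 26 members fell (42.3%), against 17.8% of all such rows. MCM10, POLA1, POLD3, POLE and RPA1 stayed called under each of the 12 alternatives, and each of the other 8 calls was lost under 3 to 7 of them.

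**Figure D3:**
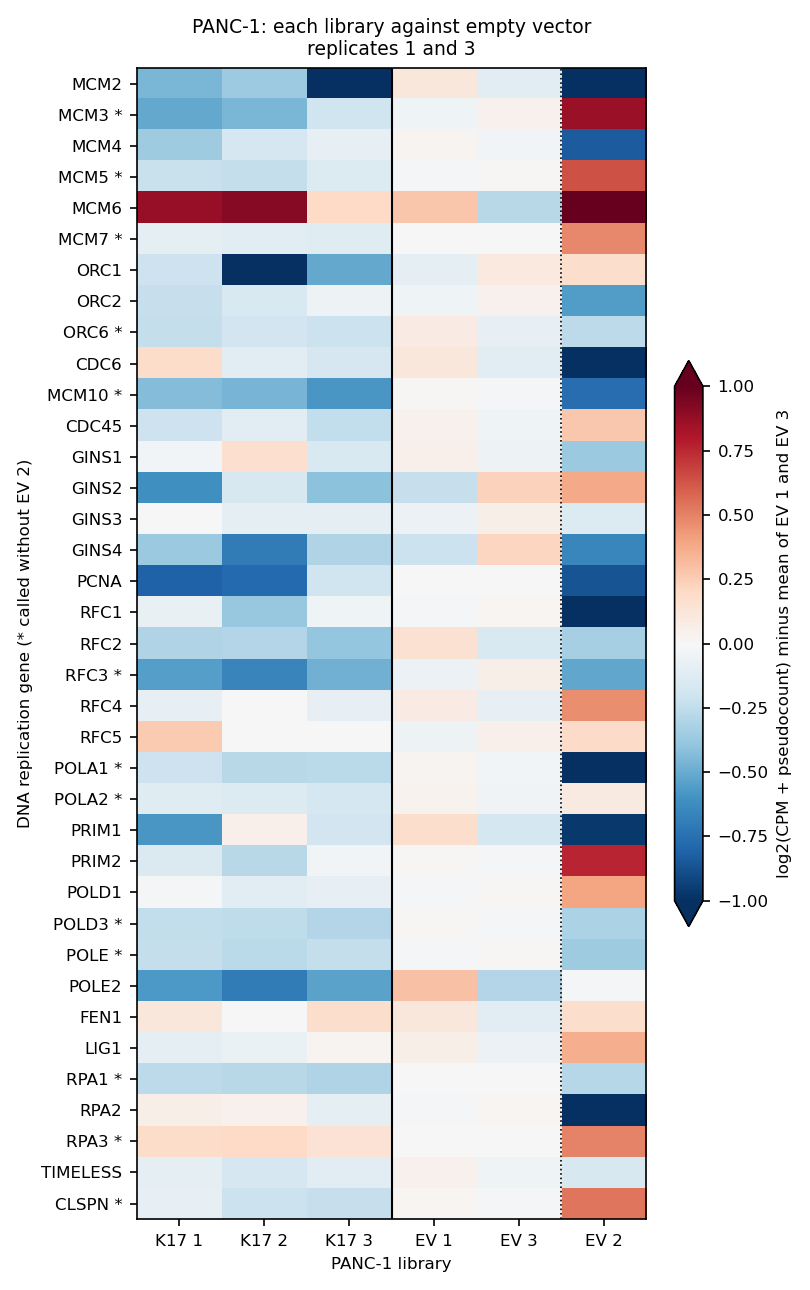
Each PANC-1 library against the mean of EV replicates 1 and 3, for the 37 members tested, as the difference of log2(CPM + 0.5); colours saturate at 1 and -1 and asterisks mark members called without EV replicate 2. The 3 K17 columns are pale blue in most rows, while the EV 2 column swings from deep blue (CDC6, RPA2, POLA1) to deep red (MCM6, MCM3).

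Among the loading and helicase genes, the fall was clearest for MCM10, which helps the loaded helicase start and holds polymerase alpha at the fork. MCM10 (chr10:13161554-13211104, plus strand) had 109.9, 108 and 99.2 CPM in K17 libraries, against 150 and 148 CPM in EV replicates 1 and 3 and 87.3 CPM in EV replicate 2. Its K17 libraries lie well below those 2 EV libraries and above the third. Without EV replicate 2 the log2 fold change was -0.50 (SE 0.05; adjusted p = 4.98e-04). MCM3, MCM5 and MCM7, subunits of the ring, had 29.5, 30.7 and 36.8 CPM, 31.3, 31.0 and 33.3 CPM, and 252, 249.5 and 248 CPM in K17 libraries. In EV replicates 1 and 3 they had 41.1 and 43.6 CPM, 36.4 and 36.9 CPM, and 271 and 269 CPM, and in EV replicate 2 77.2, 57.1 and 377 CPM. In each of these 3 genes every K17 library is below every EV library, replicate 2 included. The log2 fold changes without EV replicate 2 were -0.39, -0.20 and -0.12 (adjusted p = 0.0383, 0.0364 and 0.0178). ORC6, the smallest ORC subunit, had 35.0, 36.2 and 35.5 CPM in K17 and 43.8 and 39.2 CPM in EV libraries 1 and 3, with 34.5 CPM in EV replicate 2 (log2 fold change -0.23; adjusted p = 0.0407). ORC2 was uncalled at -0.15 (SE 0.06), and CDC45 just missed at -0.19 (SE 0.06; adjusted p = 0.0639). MCM2 and ORC1 had larger estimates with larger errors, -0.67 (SE 0.27) and -0.69 (SE 0.39), and MCM6 had 1.48 (SE 0.66) from under 1 CPM in K17 libraries.

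Of the polymerase genes POLA1, POLA2, POLD3 and POLE fell. POLA1 (chrX:24693919-24996986, plus strand) had 68.6, 65.5 and 65.8 CPM in K17 libraries, against 80.7 and 78.1 CPM in EV replicates 1 and 3 and 33.9 CPM in EV replicate 2. POLE (chr12:132623753-132687365, minus strand) had 127, 124 and 127 CPM in K17 libraries, against 148 and 151 CPM in EV replicates 1 and 3 and 117 CPM in EV replicate 2. POLD3, an accessory subunit of polymerase delta, had 98.5, 98.0 and 95.3 CPM in K17 libraries, against 118 and 116 CPM in EV replicates 1 and 3 and 93.8 CPM in EV replicate 2. In all 3 genes the K17 libraries sit tightly together between EV replicate 2 and the other EV libraries. The log2 fold changes without EV replicate 2 were -0.26, -0.26 and -0.27, with SE 0.04, 0.03 and 0.03 and adjusted p of 0.00411, 0.00106 and 0.00131. POLA2, the second subunit of polymerase alpha, fell less (-0.15, SE 0.04; adjusted p = 0.0431) and was also below every EV library. POLE2, the second subunit of polymerase epsilon, had 11.1, 10.1 and 11.4 CPM in K17 libraries, against 20.7, 16.5 and 13.5 CPM in EV libraries, with no overlap, and just missed (-0.66, SE 0.18; adjusted p = 0.0517). POLD1 (-0.08, SE 0.06), PRIM1 (-0.25, SE 0.22) and PRIM2 (-0.18, SE 0.15) were uncalled.

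At the clamp, RFC3, a subunit of the clamp loader, had 1.61, 1.46 and 1.71 CPM in K17 libraries, against 2.47 and 2.71 CPM in EV replicates 1 and 3 and 1.66 CPM in EV replicate 2. Its log2 fold change without EV replicate 2 was the lowest of the called members, -0.71 (SE 0.16; adjusted p = 0.0203), from a low row. RFC4, another subunit, had 137, 146 and 138 CPM in K17 libraries, against 155, 202 and 137 CPM in EV libraries, and was uncalled (-0.06, SE 0.06). The row of PCNA, the clamp, held 1.02, 1.05 and 1.83 CPM in K17 libraries, against 2.17 and 2.16 CPM in EV replicates 1 and 3 and 0.969 CPM in EV replicate 2, and was uncalled (-0.74, SE 0.28; adjusted p = 0.114). LIG1, the ligase that seals the fragments, was at -0.05 (SE 0.07) and FEN1, the flap nuclease, at 0.15 (SE 0.24).

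RPA split between its subunits in PANC-1. RPA1 had 207, 204 and 201 CPM in K17 libraries, against 248 and 249 CPM in EV replicates 1 and 3 and 204 CPM in EV replicate 2. RPA3, the small subunit, had 80.1, 81.0 and 78.0 CPM in K17 libraries, against 70.7 and 70.5 CPM in EV replicates 1 and 3 and 99.8 CPM in EV replicate 2. The K17 libraries therefore lie on opposite sides of EV replicates 1 and 3 in these 2 genes, and EV replicate 2 lies on the same side as K17 in each. Without EV replicate 2 the log2 fold changes were -0.29 (SE 0.03; adjusted p = 4.12e-04) for RPA1 and 0.17 (SE 0.03; adjusted p = 0.0127) for RPA3, and RPA2 was at 0.00 (SE 0.08). CLSPN had 263, 240.1 and 238 CPM in K17 libraries, against 282 and 276 CPM in EV replicates 1 and 3 and 405 CPM in EV replicate 2. Every K17 library is below every EV library, and the log2 fold change was -0.18 (SE 0.05; adjusted p = 0.0362). TIMELESS was uncalled at -0.13 (SE 0.04; adjusted p = 0.0701).

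**Figure D4:**
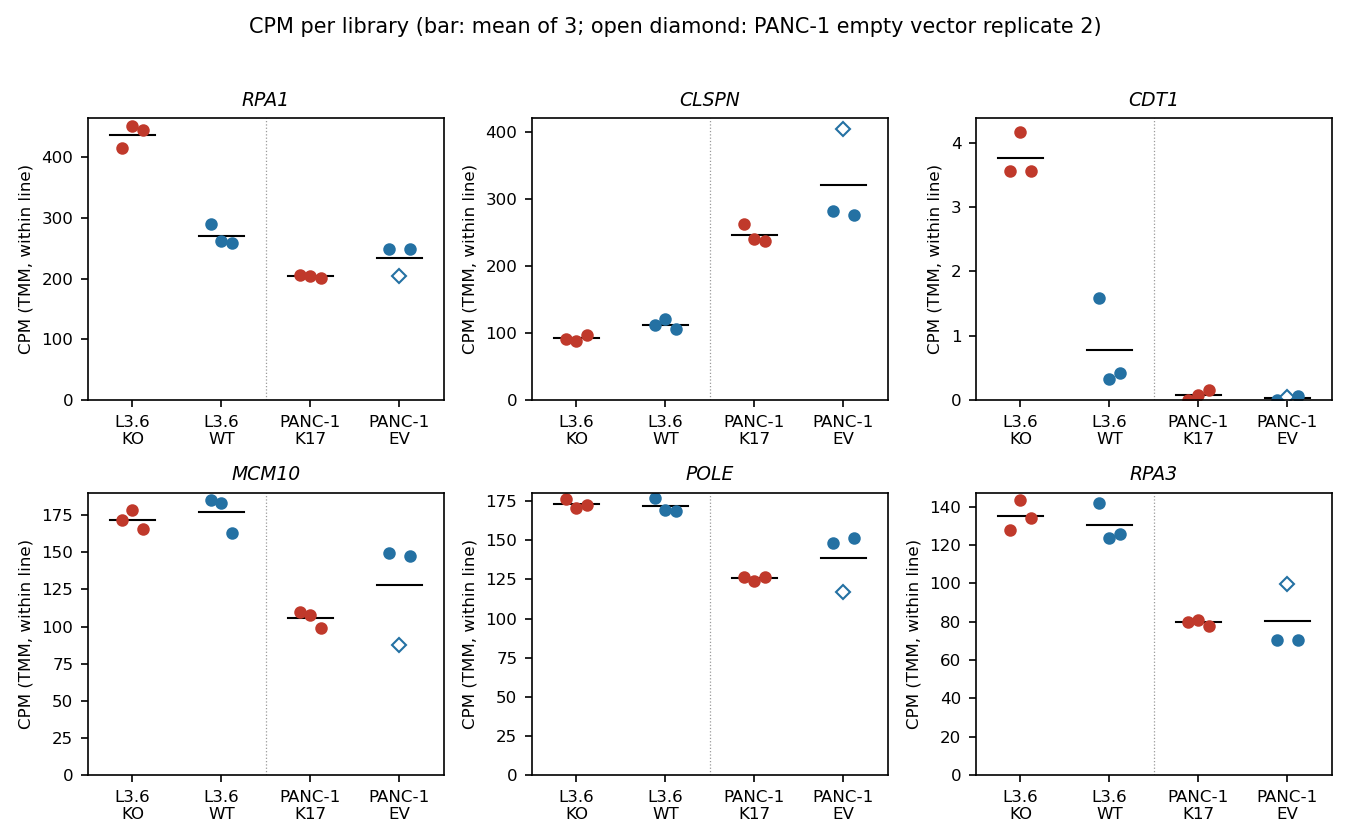
CPM of RPA1, CLSPN, CDT1, MCM10, POLE and RPA3 in each of the 12 libraries (y axis, from 0; points are libraries, lines are means of 3, red for KO or K17 and blue for WT or EV, open diamond for PANC-1 EV replicate 2). RPA1 is higher in KO than in WT libraries of L3.6 without overlap, and for MCM10, POLE and RPA1 the K17 points of PANC-1 lie below EV replicates 1 and 3, above the diamond for MCM10 and POLE and on both sides of it for RPA1.

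Markers of other cell types moved with K17 in PANC-1 too. Of 5 tested fibroblast genes COL1A1 was called higher and COL3A1 lower, with all 6 libraries and without EV replicate 2. The 6 fibroblast genes summed to 139 to 145 CPM in K17 libraries, against 26.5 to 44.4 CPM in EV libraries, most of it COL1A1. Of the other fibroblast genes LUM, DCN and PDGFRA stayed under 1 CPM and COL1A2 held 0.338 to 1.10 CPM. Acinar and islet markers summed to at most 0.0440 CPM in any PANC-1 library. Of 6 tested ductal genes KRT8 was called higher without EV replicate 2 (0.16; adjusted p = 0.00978) and 0 were called lower, while 0 were called with all 6 libraries. Of the immune genes CD3E was at 0, but CD68 held 33.3 to 49.0 CPM. The 4 immune genes summed to 35.2 to 42.3 CPM in K17 and 35.6 to 51.0 CPM in EV libraries, and 0 of the 3 tested were called. The part of these markers, and of the mitochondrial share of EV replicate 2, in the values of the replication genes was not tested.

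The change with K17 was then compared between the lines, as K17 over EV in PANC-1 minus WT over KO in L3.6, so that a positive value means a higher change with K17 in PANC-1. With all 12 libraries 0 of 38 members passed in edgeR, where 270 of 17583 genes did (1.54%). At an unadjusted p under 0.05 there were 7 members and 2593 genes. DESeq2 called RPA1 alone among the members, but its share over all genes was not counted, so this call has no background beside it. Without PANC-1 EV replicate 2, 3 of 38 passed, MCM10, RPA1 and CLSPN, where 1819 of 15758 genes did (11.5%). The values per line given below come from the separate fit of each line, and the differences from the joint fit of the 4 groups. The former therefore do not subtract exactly to the latter. For RPA1, CLSPN, MCM10, POLA1, POLD3 and POLE the joint value lies higher than that subtraction. The negative differences are thus smaller in size in the joint fit, and that of RPA1 is larger. The part of scaling across the lines in this was not tested. RPA1 was lower where K17 was present in both lines, by -0.69 in L3.6 (WT over KO) and -0.29 in PANC-1, and the difference was 0.48 (SE 0.12; adjusted p = 0.0232). CLSPN went opposite ways, at -0.18 in PANC-1 and 0.29 in L3.6 (difference -0.39, SE 0.10; adjusted p = 0.0318). Its L3.6 call was lost in 7 of 13 alternatives, 1 fit of the 4 human groups among them, and its PANC-1 call in 4 of 12. MCM10 was at -0.50 in PANC-1 and 0.05 in L3.6 (difference -0.47, SE 0.12; adjusted p = 0.0248). For POLA1, POLD3 and POLE, which fell in PANC-1 and were near 0 in L3.6, the difference itself did not pass, at -0.17 (SE 0.09), -0.19 (SE 0.11) and -0.17 (SE 0.09). In this joint fit the median over all genes was 0.05 and that over the members -0.14. Line, kind of manipulation (over-expression in PANC-1, knockout in L3.6) and library depth cannot be told apart in these differences.

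L3.6 WT and PANC-1 EV cells differed in most genes, 72.9% of those tested without EV replicate 2, and 24 of the 38 members were among them, 14 higher and 10 lower in L3.6, where 37.2% of all genes were higher and 35.8% lower. MCM5 was 2.51 higher and CLSPN 1.62 lower in L3.6 on the log2 scale, and line, culture and library depth cannot be told apart in this comparison.

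Genes around the replication machinery were counted from lists of their own, chosen with earlier results of these data known. In L3.6, 6.10% of all genes tested were called higher in KO and 3.51% lower, and the lists are read beside these shares. Of 27 other replication genes in L3.6, CHTF8, part of a clamp loader for cohesion, rose (log2 fold change 0.45; adjusted p = 0.0116) and WDHD1, which ties polymerase alpha to the helicase, fell (-0.40; adjusted p = 0.00796). WDHD1 had 81.5, 85.2 and 90.7 CPM in KO libraries, against 120.0, 109 and 109.7 CPM in WT libraries. Of 20 tested genes of G1/S control, the cyclin D partner CDK6 (0.23) and the cyclin CCND1 (0.21) rose and 0 fell. Of 8 tested CDK inhibitors and pocket proteins, 3 rose and 0 fell: CDKN1A, the p53 target p21, with 8.73, 9.57 and 10.5 CPM in KO and 6.56, 4.55 and 5.58 CPM in WT libraries, CDKN2A (0.30) and CDKN2C (0.30). Of 26 mitosis genes 4 rose and 0 fell, AURKB by 0.80, CDK1 by 0.37, PRC1 by 0.36 and BUB1B by 0.22, and the median of that list was 0.17, against 0.01 for the replication members. CDC25C, the phosphatase that activates CDK1, rose among 10 fork checkpoint genes (0.61; adjusted p = 0.0304). Of 13 genes of nucleotide supply and chromatin assembly 0 passed in edgeR, where 2 had an unadjusted p under 0.05 and DESeq2 called 1 higher and 1 lower. The histone chaperone NASP was at -0.06 (SE 0.06) and the dUTPase DUT at 0.10 (SE 0.07).

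In PANC-1 without EV replicate 2, 9.25% of all genes fell and 11.4% rose, and the lists are read beside these shares. Of the 27 other replication genes, 7 fell and POLD2 rose. WDHD1 had 107, 102 and 93.3 CPM in K17 libraries, against 132 and 136 CPM in EV replicates 1 and 3 and 51.7 CPM in EV replicate 2 (log2 fold change -0.42, SE 0.05; adjusted p = 0.00259). MCMBP, which binds MCM subunits off the DNA (-0.33), and TOPBP1, needed to fire origins (-0.26), fell, and POLD2, the second subunit of polymerase delta, rose (0.27). Of 20 genes of G1/S control 7 fell and 1 rose, among them the S-phase cyclins CCNE2 (-0.52) and CCNE1 (-0.45), the phosphatase CDC25A (-0.36) and the transcription factor E2F3 (-0.32). CCNE2 had 69.2, 64.2 and 64.7 CPM in K17 libraries, against 93.9 and 95.6 CPM in EV replicates 1 and 3 and 21.3 CPM in EV replicate 2. Of 13 genes of nucleotide supply and chromatin assembly 3 fell and 0 rose: SLBP (-0.32), NASP (-0.28) and TYMS (-0.24). Of 10 fork checkpoint genes ETAA1 rose (0.25) and CHEK1, the checkpoint kinase that CLSPN serves, fell (-0.13). Of 7 tested CDK inhibitors and pocket proteins, 0 passed in edgeR and limma voom, DESeq2 called 1 lower, and 1 had an unadjusted p under 0.05. RB1 was at -0.04 and RBL1 at -0.02 (SE 0.03 each).

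Of the 26 mitosis genes 11 fell and 1 rose in PANC-1 without EV replicate 2, with a median of -0.17, beside 12 of 37 members and their median of -0.19, where 9.25% of all genes fell. The difference between these lists was not tested. KIF23, a motor of the midzone, fell by 0.29 on the log2 scale, PRC1 by 0.25 and TPX2 by 0.72, and UBE2C rose by 0.29. With all 6 PANC-1 libraries 0 of the 103 tested genes of the 6 lists were called in edgeR (all genes 0.644%), and 5 had an unadjusted p under 0.05. DESeq2 called 1 lower, where it called 3.66% of all genes in either direction. Limma voom with quality weights called 27 lower and 3 higher, where it called 18.6% of all genes in either direction. The shares of these 2 tools over all genes were not split by direction.

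**Figure D5:**
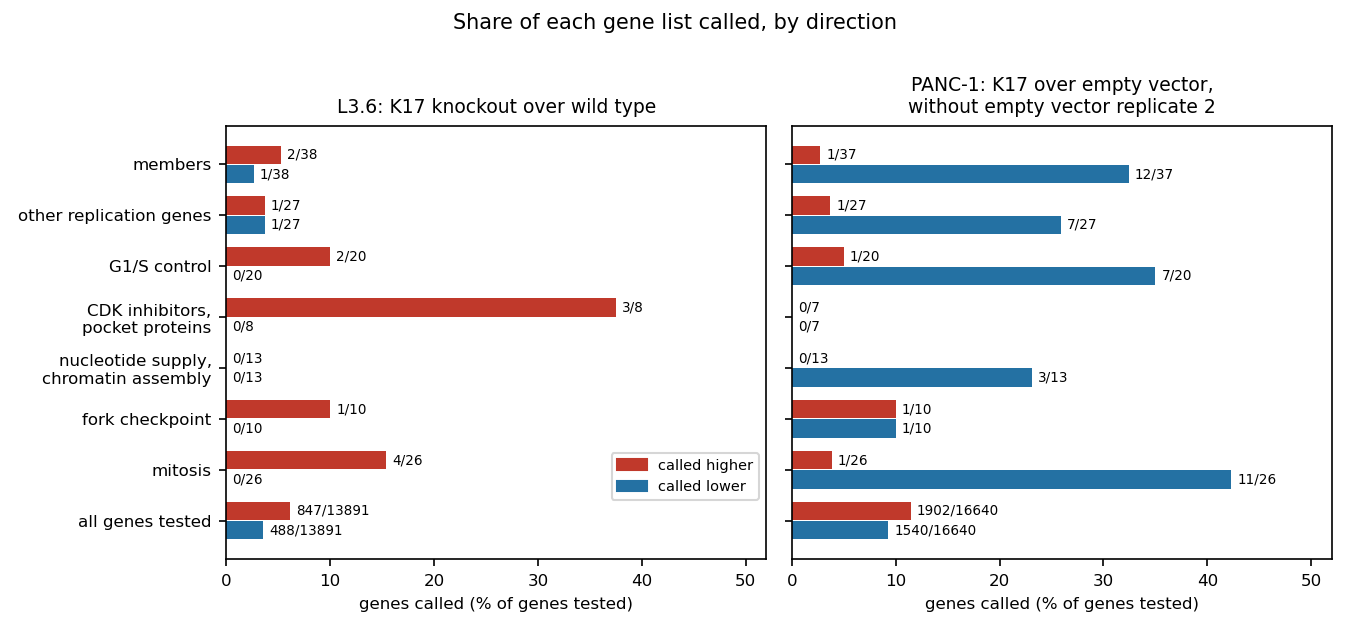
Share of genes called higher (red) and lower (blue) in each list and among all genes tested (x axis in %), for L3.6 KO over WT and for PANC-1 K17 over EV without EV replicate 2; numbers at the bars are genes called and genes tested. In L3.6 the members (2 higher and 1 lower of 38) stay near the bars of all genes. In PANC-1 the blue bars of the members (12 of 37) and of mitosis (11 of 26) are longer than that of all genes (1540 of 16640). So are those of other replication genes (7 of 27), G1/S control (7 of 20) and nucleotide supply and chromatin assembly (3 of 13). The fork checkpoint (1 of 10) is near it, and CDK inhibitors and pocket proteins (0 of 7) show none.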

How the data were processed

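Per the labels' protocols, libraries were made with a TruSeq RNA kit from TRIzol-extracted RNA. Counts per gene identifier were used as deposited by the authors, without normalization. Tools named in the submitters' processing notes are STAR 2.7.3a, kallisto 0.46.2 and bcl2fastq 1.8.4, with GRCh38 and GRCm38 as builds and no roles given. Which annotation, counting and strand settings were used is not given in the sources used here. Gene symbols and coordinates were taken from GENCODE 29, which held 34474 of the 34505 identifiers. Promoter windows come from RefSeq on GRCh38.p14.

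The libraries of each line had their own fit in edgeR 4.0.16 (filterByExpr, TMM, robust quasi-likelihood test, Benjamini-Hochberg over all genes kept, threshold 0.05) in R 4.3.3. The SE of a log2 fold change is its size divided by the square root of F. PANC-1 was fitted with and without empty vector replicate 2, and the difference between lines in 1 fit of the 4 groups. Alternatives used DESeq2 1.42.0, limma 3.58.1 voom with quality weights, other scaling factors, no filter, a replicate block, and each library left out. The SEs of the edgeR fits cover the fitted variation between libraries as well as counting error, and that variation may be technical.

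The members and the other gene lists were chosen with earlier results of these data known. Members called and among the 10 with the largest change in a comparison, and the row of each complex with the highest mean CPM, are given in every library. Uncalled members named beside them, and RPA3, were chosen after their values were seen. Of the other lists, up to 4 called genes with the largest change are named, or else the 2 rows with the highest mean CPM. Leaving out the other 5 PANC-1 libraries in turn beside empty vector replicate 2, quality weights in that comparison, counts of libraries that do not overlap and the rows of at least 10 CPM were added after seeing the data. Some genes of the lists are not reported here.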

Additional observations from a re-analysis of the deposited data

Results flagged for a closer look

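3 members differed between the lines in their change with K17 when PANC-1 empty vector replicate 2 was left out, by a test of the difference itself (K17 over empty vector in PANC-1 minus wild type over knockout in L3.6, edgeR's quasi-likelihood test). The difference was -0.469 for MCM10, 0.478 for RPA1 and -0.395 for CLSPN on the log2 scale, with adjusted p of 0.0248, 0.0232 and 0.0318. With all 12 libraries the adjusted p of each was above 0.05 in edgeR. The share of all genes that passed was 11.5% without that library and 1.54% with it. Scaling was across both lines in this fit, and its part in the size of the differences was not tested. No other tool, scaling or further omission was run for the difference without that library. RPA1 was lower where K17 was present in both lines, so the difference is in the size of its change, while CLSPN had opposite signs. The CLSPN call in L3.6 was lost in 7 of 13 alternatives, 1 fit of the 4 human groups among them. The CLSPN call in PANC-1 without empty vector replicate 2 was lost in 4 of 12. Line, kind of manipulation (over-expression in PANC-1, knockout in L3.6) and library depth cannot be told apart in these differences. MCM10 was called in PANC-1 and not in L3.6.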

How the results depend on the processing

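Of the 490 values of single members under alternatives in L3.6, 471 kept their direction and side of the threshold, 14 lost a call and 5 gained one. For PANC-1 without empty vector replicate 2 the counts were 390, 39 and 15 of 444. For PANC-1 with all 6 libraries they were 493, 0 and 21 of 518, and the other 4 changed sign with a call. These are POLA1 and RPA3, at -0.25 and 0.17 with voom quality weights, as TOPBP1 (-0.25), POLD2 (0.27) and PRC1 (-0.25) of the other lists did. Leaving out 1 library each, values ran from -0.26 to 0.25 for POLA1, -0.10 to 0.17 for RPA3, -0.26 to 0.21 for TOPBP1, -0.27 to 0.27 for POLD2, -0.25 to 0.22 for PRC1, -0.13 to 0.22 for CHEK1, -0.10 to 0.23 for BUB1B, -0.11 to 0.46 for CENPE and -0.29 to 0.29 for UBE2C. Each took its called value without empty vector replicate 2. The cause was not tested.

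In L3.6, upper-quartile scaling gave a median of -0.041 over the members, no filter gave 0 lower, and 1 fit of the 4 human groups gave 1 higher, 0 lower and 204 genes. Leaving out 1 library each gave 1 to 5 higher, 0 to 2 lower and 574 to 2493 genes. In PANC-1 with all libraries, upper-quartile scaling gave a median of -0.28, DESeq2 595 genes, voom quality weights 1 higher, 11 lower and 3030 genes, and 1 fit of the 4 groups 363 genes. Leaving out 1 library each gave 0 to 1 higher, 0 to 12 lower and 0 to 3442 genes, and the upper ends came from leaving out empty vector replicate 2. Of the 13 calls without that library, 10 were also among the 12 calls of voom quality weights with it. Without it, upper-quartile scaling gave a median of -0.24, and leaving out a further library gave 0 to 1 higher, 5 to 9 lower, 2053 to 2837 genes (2053 without empty vector replicate 1 and 2058 without replicate 3) and medians of -0.22 to -0.16. An arm left with 1 library was assumed to vary like the others. For the difference between lines, DESeq2 called 1 member, with its share over all genes not counted. Leaving out 1 library each gave 0 to 3, and 3 was reached without empty vector replicate 2.

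The replicate numbers are shared by groups, but the labels do not say that they pair cultures, and the correlation of same-numbered libraries' deviations ran between -0.14 and 0.15. With the replicate block L3.6 had 1 member higher, 0 lower and 665 genes, PANC-1 had 0 genes, and PANC-1 without empty vector replicate 2 had 0 higher, 7 lower and 2252 genes.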
